A study of Mus musculus with 12 samples.

Results

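This comparison set Ebf2-EGFP+ cells against Ebf2-EGFP- cells of the mouse cerebral cortex at E13.5. Its members are the 4 libraries, of 12 in the series, whose labels give this stage, 2 of each population. Every embryo carried the transgene Tg(Ebf2-EGFP)FB58Gsat, in which regulatory sequence of *Ebf2* drives EGFP, so both sorted populations shared it and differed only in the fluorescence gated by FACS. Cells of several embryos were pooled for each sample, and sequenced as polyadenylated RNA. The other 8 libraries hold the same populations at E11.5 and E15.5 and entered only the spread of the fit and the comparisons between stages.

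At this stage the preplate is being split by newly arriving cortical plate neurons into a superficial marginal zone, where Cajal-Retzius (CR) neurons lie, and a deep subplate. CR neurons secrete Reelin, the glycoprotein that guides the layering of migrating cortical neurons, and subplate neurons help to guide the axons that enter and leave the cortex. EGFP of this line is known to fade from subplate neurons around E13.5 while CR neurons keep it, and the Ebf2-EGFP- cells are known to hold progenitors, cortical plate neurons and every other cell of the tissue.

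Values are FPKM (fragments scaled to transcript length and to the mapped fragments of the library), and differences are Ebf2-EGFP+ minus Ebf2-EGFP- on the log2(FPKM + 1) scale, which understates the change of genes of low FPKM. A gene was called where limma's Benjamini-Hochberg adjusted p was under 0.05. The coding table holds 4859 genes and the table of lncRNAs 200 transcripts, both picked by the authors as differential between the populations, so that shares of called features describe these tables and not the transcriptome. In bulk RNA, fewer cells of a type and less RNA per cell cannot be told apart.

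Summed FPKM ranged from 118854 to 130890 over the 4 libraries. Pearson's r across genes was 0.991 between the Ebf2-EGFP+ replicates, 0.982 between the Ebf2-EGFP- replicates and 0.775 to 0.872 between libraries of different populations. Same-numbered libraries shared some of their deviations. Replicate 1 was the higher of each population for the mean level of the radial glia list (2.79 and 2.45 in Ebf2-EGFP+, 5.64 and 5.13 in Ebf2-EGFP- cells, in log2(FPKM + 1)), and replicate 2 for the immediate early gene list (3.09 and 3.54, 3.20 and 3.75). The part of these replicate differences in the results was not tested.

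**Figure D1:**
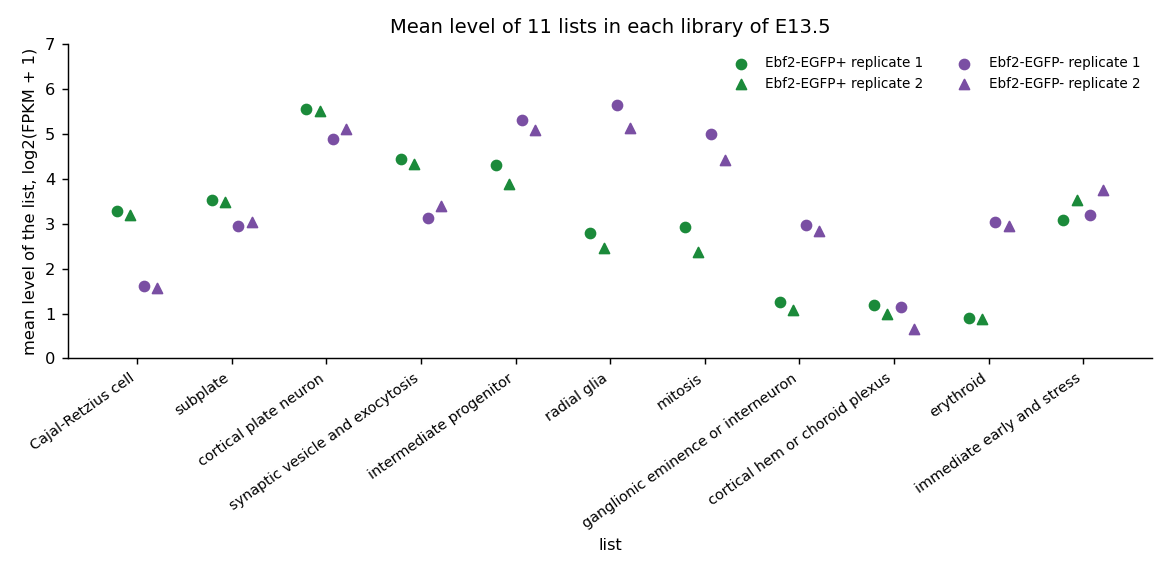
Mean level of 11 gene lists, in log2(FPKM + 1) on the y axis, in each of the 4 libraries (green, Ebf2-EGFP+; purple, Ebf2-EGFP-; circles, replicate 1; triangles, replicate 2). The radial glia list stands at 2.79 and 2.45 in Ebf2-EGFP+ and at 5.64 and 5.13 in Ebf2-EGFP- cells, and the immediate early list is higher in replicate 2 of both populations.

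The populations differed in most genes of the table. Of the 4859 genes, 1559 had the higher level in Ebf2-EGFP+ cells (32.1%), 2114 the lower (43.5%), and 1186 were not called. Larger differences lay mostly on the lower side: 84 genes were higher and 289 lower by over 2 on the log2 scale, and 5 were higher and 50 lower by over 3. In 3669 of the 3673 called genes the 2 libraries of each population did not overlap, and 2781 stayed called whichever library of E13.5 was left out. Absence of overlap was not particular to called genes. Over all 4859 genes, called or not, it held for 1902 with the higher values in Ebf2-EGFP+ cells. It held for 2417 with the higher values in Ebf2-EGFP- cells. The split between directions depended on scaling. With median-of-ratios scaling of the libraries, which moved each gene's difference by a median of 0.264, 1900 genes were higher and 1752 lower, so that 52.0% of calls were higher against 42.4% without it, and no gene called in both fits turned its sign.

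The 4 genes used as markers of CR cells were among the 5 largest positive differences of called genes, with *Dync1i1* between *Trp73* and *Ppp2r2c*. The study had picked *Ppp2r2c* for its enrichment in these same libraries, so that its direction was fixed by that choice. *Reln*, which encodes Reelin, stood at 125 and 187 FPKM in Ebf2-EGFP+ and at 2.77 and 4.22 FPKM in Ebf2-EGFP- cells (replicates 1 and 2 in this order throughout), a difference of 5.12 ± 0.33 (SE; adjusted p = 1.42e-06). *Calb2*, encoding the calcium-binding protein calretinin, stood at 16.3 and 13.2 against 0.46 and 0.138 FPKM (3.60 ± 0.21). *Trp73*, the p53-family factor of CR neurons of the cortical hem lineage, stood at 12.9 and 11.98 against 0.172 and 0.191 FPKM (3.51 ± 0.19). For these genes each Ebf2-EGFP+ library was far above both Ebf2-EGFP- libraries. *Ppp2r2c*, a regulatory subunit of protein phosphatase 2A, gave 37.6 and 33.3 against 2.26 and 3.66 FPKM (3.22 ± 0.19). *Ebf2* itself, whose regulatory sequence drives the reporter, was nearer to its background at 6.66 and 4.32 against 1.54 and 1.05 FPKM (1.49 ± 0.25; adjusted p = 0.000253), still without overlap.

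**Figure D2:**
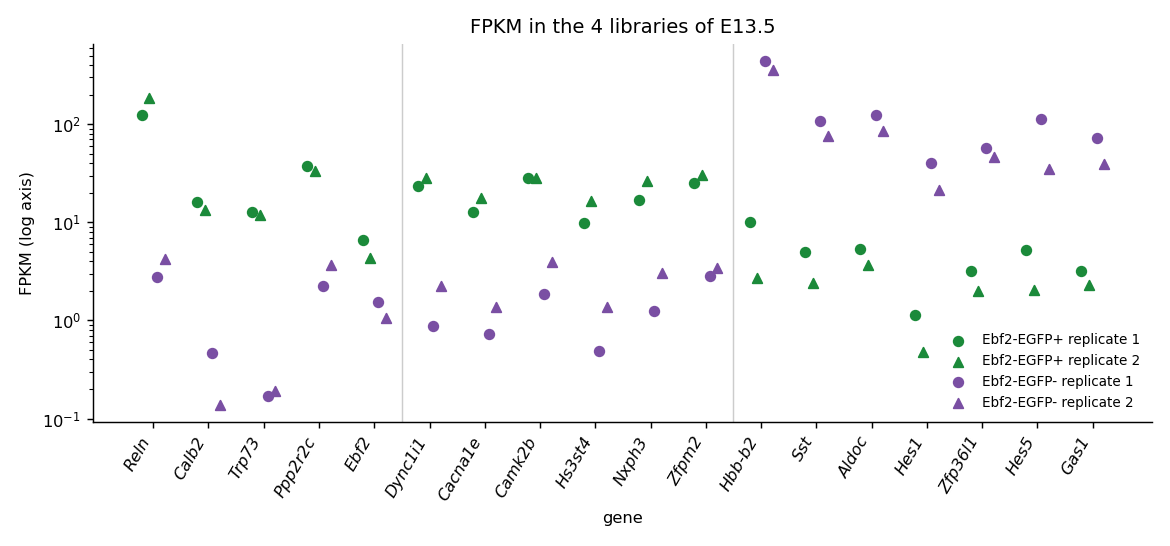
FPKM on a log axis in each of the 4 libraries (green, Ebf2-EGFP+; purple, Ebf2-EGFP-; circles, replicate 1; triangles, replicate 2) for the marker genes with *Ebf2* (left), the other genes of largest positive difference (middle) and genes of the largest negative difference (right). *Reln* reaches 125 and 187 FPKM in Ebf2-EGFP+ and 2.77 and 4.22 FPKM in Ebf2-EGFP- cells. The populations overlap in none of the 18 genes, which was a condition of picking the genes of largest difference.

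Of 32 genes listed as CR cell genes, 31 were in the table. Of these 31, 24 were higher, 0 lower and 7 not called, where 32.1% of the table was higher and 43.5% lower. Their median difference was 1.61 against -0.19 over the whole table. The study had picked 8 of these members (*Ppp2r2c*, *Nhlh2*, *Chst8*, *Slit1*, *Dbc1*, *Sncb*, *Dnm3* and *Jph3*) for their enrichment in these same libraries, so that their direction was fixed by that choice and is not independent evidence. Of the other 23 members, 16 were higher, 0 lower and 7 not called, with a median of 1.26. From these same libraries the study also named *Spock1* and *Reln* as CR-specific. It placed *Reln*, *Trp73*, *Calb2*, *Ebf2*, *Ebf3*, *Lhx1*, *Lhx5*, *Cdkn1a*, *Cacna2d2* and *Tmem163* among genes higher at all 3 stages. These 23 members are therefore not wholly independent evidence either. The summed level of all 31 was 519 and 558 FPKM in Ebf2-EGFP+ and 111 and 104 FPKM in Ebf2-EGFP- cells. The transcription factors of the list did not move as a block. *Lhx5*, a LIM-homeodomain factor, stood at 4.06 and 3.44 against 0.0748 and 0.0169 FPKM (2.18 ± 0.16), and *Ebf3* at 10.3 and 9.36 against 1.51 and 1.40 FPKM (2.14 ± 0.20). *Ebf1*, of the same family as *Ebf2* and *Ebf3*, was at 2.24 and 1.28 against 2.13 and 2.07 FPKM and was not called (-0.19 ± 0.21). Of the *Zic* genes in the list, which encode zinc-finger factors of septum and hem, *Zic1* was higher by 0.95, and *Zic2*, *Zic4* and *Zic5* were not called. *Ndnf*, a secreted protein of later layer 1 cells, was at 0.251 and 1.36 against 0.212 and 0.124 FPKM, with the 2 Ebf2-EGFP+ libraries far apart, and was not called. *Cntnap2*, a neuronal cell adhesion protein and after *Reln* the most abundant gene of the list, stood at 66.7 and 51.7 against 29.5 and 19.9 FPKM (1.24 ± 0.20). Without Ebf2-EGFP- replicate 2, 1 gene of the list was called lower.

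Promoter windows of the listed genes were read from RefSeq (GRCm38.p6; 250 bases before to 50 after the start). The window of *Reln* is shown because *Reln* carries the largest positive difference, with letters of the EBF motif in capitals (CCCNNGGGA on either strand, overlapping matches included), at chr5:22344656-22344955, minus strand. The *Reln* gene itself spans chr5:21884454-22344702.
Reln: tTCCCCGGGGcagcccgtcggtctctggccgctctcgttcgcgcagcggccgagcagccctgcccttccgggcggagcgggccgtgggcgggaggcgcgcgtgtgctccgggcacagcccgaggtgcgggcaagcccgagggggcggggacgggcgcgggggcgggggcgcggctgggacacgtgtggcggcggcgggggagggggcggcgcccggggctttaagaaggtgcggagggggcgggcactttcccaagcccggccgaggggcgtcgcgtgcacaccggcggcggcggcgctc
Such letters were in 3 of the 25 listed CR genes that matched a window (12%), against 9.05% of the 3778 table genes with a window and 6.43% of all 27025 genes. The CAGATG E-box, which proneural factors can bind, was in 3 of the 25 (12%) and in 11.1% of the table genes.

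Outside the markers, 6 further genes had the largest positive differences at 5 FPKM or more. *Dync1i1*, a subunit of the dynein motor, stood at 23.6 and 28.4 against 0.874 and 2.22 FPKM (3.45 ± 0.30). *Cacna1e*, the pore of R-type calcium channels, stood at 12.9 and 17.7 against 0.732 and 1.36 FPKM (2.99 ± 0.23). *Camk2b*, a calcium- and calmodulin-dependent kinase, stood at 28.3 and 28.4 against 1.85 and 3.95 FPKM (2.97 ± 0.24). In each of these, Ebf2-EGFP- replicate 2 was above replicate 1. *Zfpm2*, a zinc-finger cofactor of GATA proteins, gave 25.1 and 30.5 against 2.85 and 3.41 FPKM (2.80 ± 0.30). The remaining members, *Hs3st4* and *Nxph3*, are subplate genes and are given with that group.

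Subplate genes included members on both sides. Of 26 measured, 13 were higher and 4 lower, with a median of 0.43, where 32.1% of the table was higher and 43.5% lower with a median of -0.19. With scaling, 18 of the list were higher and 4 lower. The higher members *Tbr1*, *Sox5*, *Tle4* and *Mef2c* are also in the cortical plate neuron list and are counted in both. *Hs3st4*, a heparan sulfate sulfotransferase, stood at 9.81 and 16.6 against 0.482 and 1.36 FPKM (2.88 ± 0.26), and *Nxph3*, a secreted neurexin ligand, at 16.7 and 26.3 against 1.24 and 3.02 FPKM (2.87 ± 0.39). *Tbr1*, the T-box factor of early cortical neurons, stood at 225 and 228 against 66.1 and 81.7 FPKM (1.61 ± 0.20). These genes were higher in each Ebf2-EGFP+ library than in either Ebf2-EGFP- library. For *Hs3st4* and *Nxph3* this was a condition of picking them. The 4 lower members were *Lpar1*, *Ctgf*, *Nr4a2* and *Svil*. *Lpar1*, a lysophosphatidic acid receptor, stood at 0.901 and 0.391 against 16.7 and 11.2 FPKM (-3.17 ± 0.27), *Ctgf*, a matricellular growth factor, at 0.354 and 0.305 against 5.46 and 5.61 FPKM (-2.30 ± 0.23), and *Nr4a2*, an orphan nuclear receptor, at 3.26 and 2.51 against 7.11 and 6.43 FPKM (-1.01 ± 0.21). *Igfbpl1*, the most abundant member, was at 261 and 273 against 227 and 234 FPKM and was not called (0.21 ± 0.15), but was called with scaling (0.52).

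Cortical plate neuron genes divided by layer. Of 30 in the table, 19 were higher, 5 lower and 6 not called, with a median of 0.81. Over all table genes, 32.1% were higher and 43.5% lower. *Tbr1*, *Sox5*, *Tle4* and *Mef2c*, all higher, were also counted in the subplate list. On the higher side were genes of deep layers: *Crym*, a thyroid hormone-binding crystallin, at 10.9 and 10.7 against 0.536 and 1.05 FPKM (2.73 ± 0.33), *Bcl11b*, a zinc-finger factor of corticospinal neurons, at 72.7 and 86.6 against 23.4 and 36.0 FPKM (1.42 ± 0.44), and *Fezf2*, a factor of the same neurons, at 92.2 and 103 against 43.6 and 42.3 FPKM (1.16 ± 0.39). *Mef2c*, a MADS-box factor of neuronal maturation, was at 27.7 and 25.8 against 4.23 and 6.54 FPKM (2.14 ± 0.27). All 5 lower members were *Cux1*, *Cux2*, *Pou3f1*, *Pou3f2* and *Pou3f3*, factors used by upper-layer neurons and their progenitors. *Pou3f2* stood at 4.30 and 1.88 against 16.8 and 12.97 FPKM (-2.01 ± 0.28), *Pou3f3* at 30.6 and 28.9 against 127 and 111 FPKM (-1.96 ± 0.16), and *Cux2* at 4.10 and 3.05 against 11.4 and 15.3 FPKM (-1.64 ± 0.21). The most abundant members were the least separated: *Rnd2*, a small GTPase of migrating neurons, at 604 and 492 against 357 and 309 FPKM (0.71 ± 0.24), and *Neurod6*, a basic helix-loop-helix factor, at 472 and 436 against 257 and 322 FPKM (0.65 ± 0.22). Both kept their call in 2 of the 4 fits that leave out 1 library.

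Genes of the neuronal cytoskeleton and of synapses were higher nearly throughout. Of 28 cytoskeletal genes measured, 25 were higher and 0 lower (median 0.91), where 32.1% of the table was higher and 43.5% lower. *Ina*, a neurofilament-like protein, stood at 179 and 204 against 37.4 and 56.3 FPKM (2.04 ± 0.19). *Stmn2*, a microtubule regulator, was at 430 and 359 against 91.8 and 107 FPKM (1.98 ± 0.20), and *Gap43*, a growth cone protein, at 320 and 293 against 69.8 and 85.1 FPKM (1.98 ± 0.15). The tubulins were high in both populations, with *Tuba1a* at 7650 and 5873 against 4255 and 3805 FPKM (0.74 ± 0.29), called in 1 of the 4 fits without a library, and *Tubb2b* at 2474 and 2443 against 1605 and 1596 FPKM (0.62 ± 0.22), called in 0 of those 4.

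Of 36 genes of synaptic vesicles and exocytosis, 30 were higher and 1, *Sypl*, lower (median 1.28). The table's own shares were 32.1% higher and 43.5% lower. *Sv2b*, a vesicle glycoprotein, stood at 18.1 and 12.8 against 1.35 and 1.56 FPKM (2.72 ± 0.24), *Sncb*, beta-synuclein, at 31.3 and 22.3 against 3.03 and 3.33 FPKM (2.72 ± 0.25), and *Cplx1*, a complexin that clamps vesicle fusion, at 36.4 and 38.8 against 5.86 and 9.97 FPKM (2.15 ± 0.20). The vesicular glutamate transporters parted. *Slc17a7* stood at 59.3 and 52.0 against 14.3 and 17.5 FPKM (1.75 ± 0.27), while *Slc17a6* stood at 19.1 and 13.55 against 18.4 and 16.9 FPKM and was not called.

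Voltage-gated channel genes were higher in 30 of 40 and lower in 4 (median 0.99), beside 32.1% and 43.5% of all table genes. *Cacna2d2* and *Cacna2d3*, auxiliary calcium channel subunits, stood at 11.2 and 10.6 against 1.09 and 0.998 FPKM (2.54 ± 0.25) and at 6.93 and 8.15 against 0.968 and 1.05 FPKM (2.08 ± 0.19). Among the lower members were *Cacnb2*, *Kcnh5* and *Kcna3*, a potassium channel that was the most abundant of the 4 at 5.51 and 5.07 against 14.9 and 11.1 FPKM (-1.14 ± 0.18). Without Ebf2-EGFP+ replicate 2, or without Ebf2-EGFP- replicate 1, 2 members were lower. Of 27 receptor genes for glutamate, GABA and glycine, 18 were higher and 1, the kainate receptor subunit *Grik1*, lower (median 0.96). *Gabra5*, a GABA-A receptor subunit, stood at 5.88 and 3.91 against 0.215 and 0.415 FPKM (2.15 ± 0.17), *Grm2*, a metabotropic glutamate receptor, at 6.36 and 5.30 against 0.450 and 0.603 FPKM (2.16 ± 0.24), and *Glra2*, a glycine receptor subunit, at 39.8 and 28.1 against 5.94 and 8.25 FPKM (2.11 ± 0.21). *Gria2*, an AMPA receptor subunit, was at 28.2 and 26.3 against 14.1 and 21.4 FPKM and was not called (0.62 ± 0.45).

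Of 11 Reelin pathway genes in the table, 7 were higher and 2 lower, where 32.1% of all table genes were higher and 43.5% lower. The ligand *Reln* is given above. Of its receptors, *Vldlr* stood at 6.62 and 5.39 against 3.14 and 3.20 FPKM (0.74 ± 0.17), and *Lrp8* at 28.1 and 29.3 against 29.3 and 37.3 FPKM and was not called (-0.20 ± 0.18). *Dab1*, the adaptor that relays the signal inside responding neurons, was higher at 76.8 and 92.5 against 31.6 and 40.7 FPKM (1.21 ± 0.18), as was *Rap1gap*, a GTPase-activating protein, at 6.72 and 6.60 against 2.27 and 2.26 FPKM (1.23 ± 0.15). The lower members were *Yes1*, a Src-family kinase (-1.002 ± 0.22), and *Itgb1*, an integrin (-0.49 ± 0.14), and the call of *Itgb1* was lost with scaling. Ligands and receptors of axon guidance lay on both sides, with 25 of 53 higher and 13 lower (median 0.35). This was a larger share higher and a smaller share lower than in the table. *Plxnd1*, a semaphorin receptor, stood at 46.8 and 45.6 against 7.11 and 9.10 FPKM (2.38 ± 0.21), and *Robo1*, a Slit receptor, at 53.1 and 65.5 against 8.32 and 16.5 FPKM (2.23 ± 0.25). *Slit1*, which encodes a ligand of Robo receptors, was higher too, at 39.5 and 49.8 against 9.004 and 11.01 FPKM (2.05 ± 0.19). On the lower side, *Sema5a*, a semaphorin, stood at 6.35 and 3.88 against 35.5 and 28.7 FPKM (-2.46 ± 0.21), and *Efnb1*, an ephrin, at 37.8 and 32.6 against 119 and 103 FPKM (-1.63 ± 0.29).

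**Figure D3:**
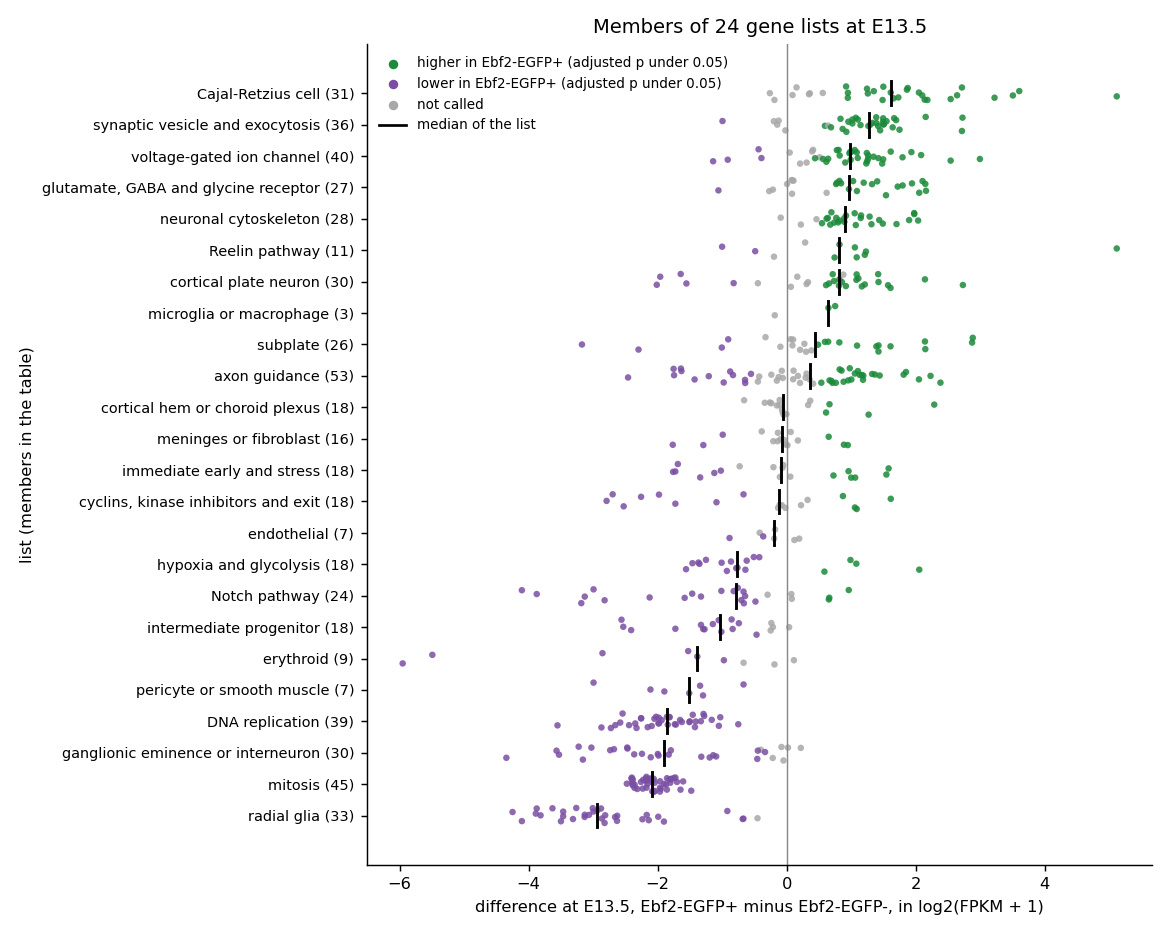
Difference between Ebf2-EGFP+ and Ebf2-EGFP- cells at E13.5, in log2(FPKM + 1) on the x axis, for each member (point) of the 24 gene lists (rows, with the number of members in the table), coloured by the call, with the median of each list as a black line. Medians run from -2.93 for radial glia genes to 1.61 for CR cell genes, and all 45 mitosis genes lie below 0.

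Progenitor genes were lower in Ebf2-EGFP+ cells. Radial glia, the stem cells of the cortex, were represented by 33 genes in the table. Of these, 32 were lower and 0 higher (median -2.93), with *Emx1* the gene not called. The table's own shares were 43.5% lower and 32.1% higher. *Hes1* and *Hes5*, repressors that carry out Notch signalling, stood at 1.13 and 0.478 against 40.7 and 21.3 FPKM (-4.11 ± 0.32) and at 5.17 and 2.06 against 113 and 34.7 FPKM (-3.88 ± 0.53). *Aldoc*, a glycolytic aldolase of glia, stood at 5.29 and 3.66 against 123 and 84.5 FPKM (-4.25 ± 0.41). In these genes replicate 1 was above replicate 2 in both populations, by over 3 times for *Hes5* in Ebf2-EGFP- cells. They were also among the genes picked for a large difference without overlap of the populations. *Zfp36l1*, an mRNA decay factor, gave 3.17 and 1.99 against 57.1 and 46.2 FPKM (-3.89 ± 0.31), and *Gas1*, a Hedgehog coreceptor, 3.21 and 2.30 against 72.3 and 39.1 FPKM (-3.86 ± 0.34). The abundant *Vim* (vimentin) and *Fabp7* (brain lipid-binding protein) kept larger residual levels in Ebf2-EGFP+ cells, at 132 and 125 against 606 and 435 FPKM (-1.99 ± 0.34) and at 50.4 and 51.0 against 479 and 324 FPKM (-2.93 ± 0.24).

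Of 24 Notch pathway genes, 18 were lower and 3 higher (median -0.79), where 43.5% of the table was lower and 32.1% higher. Some of them were counted in other lists as well. *Notch1*, *Notch2*, *Notch3*, *Hes1* and *Hes5* are also radial glia members, *Hes6* and *Mfng* intermediate progenitor members, and *Notch3* and *Heyl* pericyte members. The receptors *Notch1*, *Notch2* and *Notch3* were lower by 3.13, 2.82 and 2.99 on the log2 scale, and *Lfng*, the glycosyltransferase that tunes them, stood at 1.08 and 0.593 against 21.6 and 11.1 FPKM (-3.18 ± 0.36). The 3 higher members were *Dner*, *Jag2* and *Rfng*. *Dner*, a neuronal Notch ligand, stood at 74.3 and 57.2 against 30.5 and 35.7 FPKM (0.96 ± 0.16).

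Intermediate progenitor genes were lower in 14 of 18, higher in 0 (median -1.03), beside 43.5% and 32.1% of all table genes. *Tfap2c*, an AP-2 factor, stood at 4.22 and 2.33 against 29.7 and 18.8 FPKM (-2.56 ± 0.32), and *Neurog2*, a proneural factor, at 29.2 and 16.2 against 158 and 91.7 FPKM (-2.41 ± 0.40). *Eomes*, the T-box factor that defines these cells, was at 54.6 and 38.7 against 110 and 96.0 FPKM (-1.15 ± 0.30), and *Hes6*, an antagonist of *Hes1*, at 60.9 and 41.2 against 122 and 85.6 FPKM (-1.01 ± 0.26). These genes were therefore far from absent in the Ebf2-EGFP+ libraries, and replicate 1 was again the higher of each population. Without scaling 14 were lower and with it 12.

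All cell division genes of the lists were lower. Each of 39 DNA replication genes (median -1.86) and of 45 mitosis genes (median -2.08) was called, also with scaling, with the replicate block and without any single library. *Mcm3*, of the replicative helicase, stood at 5.20 and 3.16 against 72.5 and 47.3 FPKM (-3.55 ± 0.32), and *Pcna*, the polymerase clamp, at 67.8 and 51.4 against 347 and 205 FPKM (-2.16 ± 0.24). *Ccnb2*, a cyclin of mitotic entry, stood at 6.35 and 2.99 against 34.98 and 24.3 FPKM (-2.48 ± 0.31), and *Top2a*, topoisomerase II, at 21.04 and 11.8 against 110 and 69.4 FPKM (-2.40 ± 0.35). *Aurkb* and *Ccna2* gave -2.41 ± 0.35 and -2.40 ± 0.27. The Ebf2-EGFP+ libraries still held 374 and 236 FPKM over the mitosis list, against 1742 and 1155 FPKM in Ebf2-EGFP- cells. Of 18 cyclins, kinases and genes of cell cycle exit, 8 were lower and 4 higher, shares close to or under the 43.5% and 32.1% of the table, so that the counts say nothing of this list. *Ccnd2*, a G1 cyclin, stood at 23.2 and 16.4 against 179 and 111 FPKM (-2.79 ± 0.28). The 4 higher members were the kinase inhibitors *Cdkn1a* and *Cdkn1c* and the Cdk5 activators *Cdk5r1* and *Cdk5r2*. *Cdkn1a* stood at 9.08 and 3.68 against 1.06 and 1.45 FPKM (1.61 ± 0.34), with replicate 1 of the Ebf2-EGFP+ cells well above replicate 2. *Cdk5r1* stood at 131 and 141 against 53.0 and 76.0 FPKM (1.08 ± 0.18).

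Because division genes fell together, their promoter windows are shown for 3 of the genes named above, in RefSeq sequence (GRCm38.p6). Capitals mark CCAAT boxes (CCAAT) and, in *Ccnb2* and *Top2a*, the cell cycle homology element (TTTGAA), or, in *Mcm3*, an E2F-type element (TTTNNCGC), each on either strand. The windows lie at chr9:70421505-70421804 (*Ccnb2*), chr11:99024140-99024439 (*Top2a*) and chr1:20820263-20820562 (*Mcm3*), all on the minus strand.
Ccnb2: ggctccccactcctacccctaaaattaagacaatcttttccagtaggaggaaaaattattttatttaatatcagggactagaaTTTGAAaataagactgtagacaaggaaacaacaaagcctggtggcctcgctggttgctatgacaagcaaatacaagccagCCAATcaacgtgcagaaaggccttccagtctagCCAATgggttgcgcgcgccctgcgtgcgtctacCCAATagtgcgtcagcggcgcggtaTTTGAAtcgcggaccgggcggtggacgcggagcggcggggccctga
Top2a: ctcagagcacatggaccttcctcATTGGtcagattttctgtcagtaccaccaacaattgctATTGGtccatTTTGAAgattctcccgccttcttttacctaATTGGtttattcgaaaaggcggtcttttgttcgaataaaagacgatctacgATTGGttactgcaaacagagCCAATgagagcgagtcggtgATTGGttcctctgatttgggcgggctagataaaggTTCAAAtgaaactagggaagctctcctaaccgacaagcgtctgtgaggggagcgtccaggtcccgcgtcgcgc
Mcm3: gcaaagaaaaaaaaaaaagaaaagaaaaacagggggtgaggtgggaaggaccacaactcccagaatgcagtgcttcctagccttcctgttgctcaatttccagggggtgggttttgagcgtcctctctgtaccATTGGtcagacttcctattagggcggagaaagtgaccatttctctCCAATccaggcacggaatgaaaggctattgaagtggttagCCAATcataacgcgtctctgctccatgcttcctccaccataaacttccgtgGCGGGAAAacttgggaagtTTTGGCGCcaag
The window of *Ccnb2* held 3 CCAAT boxes and 2 TTTGAA elements, that of *Top2a* held 6 and 2, and that of *Mcm3* held 2 TTTNNCGC elements and 3 CCAAT boxes. Of the 38 mitosis genes that matched a window, 29 (76.3%) held CCAAT and 28 (73.7%) TTTGAA, against 38.4% and 12.2% of the table genes with a window and 37.9% and 18.1% of all genes. Of the 33 DNA replication genes with a window, 14 (42.4%) held TTTNNCGC and 4 (12.1%) TTTGAA, against 9.05% and 12.2% of the table genes. Among all genes called lower, 16.2% held TTTGAA and 12.4% TTTNNCGC, and among all called higher 8.21% and 5.16%. A match is a run of letters, and binding was not measured.

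Genes of the ganglionic eminences and their interneurons, which migrate into the cortex from below it, were lower in 24 of 30, higher in 0 (median -1.91). In the table as a whole, 43.5% of genes were lower and 32.1% higher. *Sst*, the neuropeptide somatostatin, stood at 4.95 and 2.43 against 107 and 76.7 FPKM (-4.35 ± 0.37). *Nr2e1*, an orphan nuclear receptor also found in cortical progenitors, was at 3.41 and 1.62 against 48.7 and 31.7 FPKM (-3.57 ± 0.33). *Gad1*, which makes GABA, was at 0.225 and 0.198 against 4.98 and 6.52 FPKM (-2.47 ± 0.24). *Nkx2-1*, of the medial eminence, was listed at 0 and 0.0686 against 0.239 and 0.165 FPKM and was not called. *Meis2* was at 41.0 and 41.4 against 94.4 and 96.8 FPKM (-1.19 ± 0.13).

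Of 18 genes of the cortical hem or choroid plexus, a source of CR neurons at the cortical edge, 4 were higher, 0 lower and 14 not called. Both shares were under those of the table, where 32.1% of genes were higher and 43.5% lower. *Rspo3*, a secreted enhancer of Wnt signalling, stood at 19.0 and 19.9 against 3.06 and 3.33 FPKM (2.29 ± 0.25), and *Wnt5a*, a Wnt ligand, at 3.94 and 2.85 against 0.796 and 0.824 FPKM (1.27 ± 0.23). *Lmx1a*, a LIM-homeodomain factor of the hem, stood at 1.06 and 0.822 against 0.400 and 0.0682 FPKM (0.66 ± 0.17). Several of the others were high in replicate 1 only: *Ttr* stood at 0.571 and 0.0688 against 2.73 and 0.125 FPKM and *Wnt8b* at 0.446 and 0.0445 against 0.933 and 0.121 FPKM, both not called. Without Ebf2-EGFP- replicate 2, 5 genes of the list were called lower.

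Genes of other cells of the tissue were measured as well. Their counts stand beside the 32.1% of table genes that were higher and the 43.5% that were lower. The endothelial and meningeal counts were under both shares and are no result about those lists. The most negative differences of the table were in beta-globin genes, of which *Hbb-b2* stood at 10.1 and 2.69 against 439 and 356 FPKM (-5.95 ± 0.47) and *Beta-s* at 14.6 and 10.9 against 711 and 587 FPKM (-5.57 ± 0.59). *Hbb-b1* was at 0.000845 and 4.401 against 118 and 90.8 FPKM (-5.49 ± 1.43). These genes are near-identical copies, among which reads could be split in counting. Of 9 erythroid genes measured, 6 were lower and 3 not called, the latter being the embryonic globins *Hba-x*, *Hbb-bh1* and *Hbb-y*, at 0.271 to 4.07 FPKM. The list summed to 15.7 and 10.4 FPKM in Ebf2-EGFP+ and to 578 and 465 FPKM in Ebf2-EGFP- cells. All 7 pericyte or smooth muscle genes were lower, among them *Rgs5*, a regulator of G-protein signalling, at 0.121 and 0.285 against 4.19 and 4.19 FPKM (-2.11 ± 0.28), and *Myl9*, a myosin light chain, at 0.220 and 0.0794 against 4.60 and 2.26 FPKM (-1.90 ± 0.22). *Notch3* of the same list is also a radial glia gene. Of 7 endothelial genes 2 were lower, *Mfsd2a* (-0.89 ± 0.19) and *Egfl7* (-0.36 ± 0.15), and the call of *Egfl7* was lost in each of the 4 fits without a library. *Cldn5*, the tight junction protein of brain vessels, was at 0.600 and 0.318 against 0.807 and 1.09 FPKM and was not called. Of 16 genes of meninges or fibroblasts 3 were lower and 3 higher. The lower members were *Igf2*, *Col1a1* and *Col3a1*, and the higher ones *Islr*, *Nnat* and *Zic1*. Without Ebf2-EGFP+ replicate 1, or without Ebf2-EGFP- replicate 2, 1 gene of that list was higher. Only 3 of 20 microglia or macrophage genes were in the table: *Aif1* was higher at 0.933 and 0.673 against 0.111 and 0.188 FPKM (0.65 ± 0.11), *Coro1a*, an actin-binding protein also made by neurons, was higher (0.75 ± 0.18), and *Cd68* was not called.

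Immediate early genes, which respond within minutes to stimulation and to dissociation, were higher in 6 of 18, lower in 6 and not called in 6, shares that are near or under those of the table (32.1% higher, 43.5% lower) and are no result about the list. *Fos* stood at 40.4 and 141 against 71.0 and 223 FPKM, replicate 2 the higher in both populations, and was not called (-0.73 ± 0.61; adjusted p = 0.295), but was called with the replicate block (adjusted p = 0.00189). *Jun* stood at 46.2 and 62.3 against 117 and 162 FPKM (-1.34 ± 0.32), *Atf3* at 0.851 and 0.873 against 4.31 and 6.51 FPKM (-1.76 ± 0.28), and *Fosl2* at 4.47 and 7.96 against 1.05 and 1.68 FPKM (1.58 ± 0.28). Without Ebf2-EGFP+ replicate 2, or without Ebf2-EGFP- replicate 1, 2 genes of the list were higher. Of 18 genes of glycolysis and the response to low oxygen 14 were lower and 4 higher, and 10 were lower with scaling. *Eno1*, an enolase, stood at 125 and 112 against 320 and 251 FPKM (-1.25 ± 0.18), and *Pgk1*, phosphoglycerate kinase, at 152 and 124 against 335 and 231 FPKM (-1.01 ± 0.21). The 4 higher members were *Ndrg1*, *Pfkp*, *Hk1* and *Slc2a3*. *Slc2a1* and *Slc2a3*, the glucose transporters of vessels and glia and of neurons, moved in opposite directions, with *Slc2a1* at 8.76 and 7.61 against 24.4 and 21.1 FPKM (-1.37 ± 0.15) and *Slc2a3* at 7.33 and 9.94 against 4.57 and 6.27 FPKM (0.58 ± 0.20).

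Of 200 lncRNA transcripts, 50 were higher (25%) and 62 lower (31%), and 71 were higher and 49 lower with scaling, so that 59.2% of calls were higher against 44.6% without it. Without Ebf2-EGFP+ replicate 2 a total of 74 were called, and without Ebf2-EGFP- replicate 1 a total of 67, against 112 from all libraries. *Lhx1os* stood at 3.54 and 2.71 FPKM in Ebf2-EGFP+ cells and was listed at 0 in both Ebf2-EGFP- libraries, as was *Gm27199*, at 2.06 and 2.68 FPKM in Ebf2-EGFP+ cells. *Gm12063* stood at 11.52 and 11.55 against 2.09 and 3.02 FPKM (1.83 ± 0.34). On the lower side, *Dlx1as* stood at 0.753 and 1.31 against 32.0 and 39.7 FPKM (-4.19 ± 0.25), *Pantr1* at 6.59 and 6.62 against 67.1 and 67.0 FPKM (-3.16 ± 0.23), and *Gm29260* at 0.877 and 0.563 against 14.9 and 12.03 FPKM (-3.07 ± 0.20). Absence of overlap between the populations was a condition of picking these 6.

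In GENCODE M21 (GRCm38) 5 of these 6 transcripts start within 8863 bases of genes of transcription factors that were themselves called in the same direction. *Lhx1os* (chr11:84525684-84535830, plus strand, 4 exons) starts 149 bases from *Lhx1*, which lies on the opposite strand and stood at 2.83 and 1.80 against 0.0447 and 0.0335 FPKM (1.66 ± 0.17). *Gm27199* (chr5:120419659-120431767, minus strand) starts 68 bases from *Lhx5*, and *Gm12063* (chr11:24076559-24077367, plus strand) 1497 bases from *Bcl11a*, at 114 and 125 against 60.7 and 75.5 FPKM (0.81 ± 0.21). *Pantr1* (chr1:42648193-42693128, minus strand) starts 2640 bases from *Pou3f3*, and *Dlx1as* (chr2:71532784-71537891, minus strand) 8863 bases from *Dlx2*, a factor of interneurons at 0.472 and 0.419 against 12.8 and 12.2 FPKM (-3.22 ± 0.19). *Gm29260* (chr1:41781808-41939560, plus strand) lies 913960 bases from its nearest coding start, which is also *Pou3f3*.

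A shared direction was also seen across the called lncRNAs within a limit of 5000 bases, which leaves out *Dlx1as* and *Gm29260*. Of 106 with a position, 58 started within 5000 bases of a protein-coding start and 44 of those coding genes were in the coding table. In 42 of the 44 pairs both members were called in the same direction: 19 of 20 for lncRNAs that were higher, where 32.1% of the table's genes were higher, and 23 of 24 for lncRNAs that were lower, where 43.5% of the table's genes were lower. The 2 exceptions were *Gm15728* beside *Rfc5* and *Gm4430* beside *Slc20a1*. Some pairs share a coding gene or overlap in sequence, both tables hold only features picked as differential, and whether counting used strand is not given in the sources used here, so that reads of a lncRNA and of an overlapping partner on the other strand cannot be told apart.

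**Figure D4:**
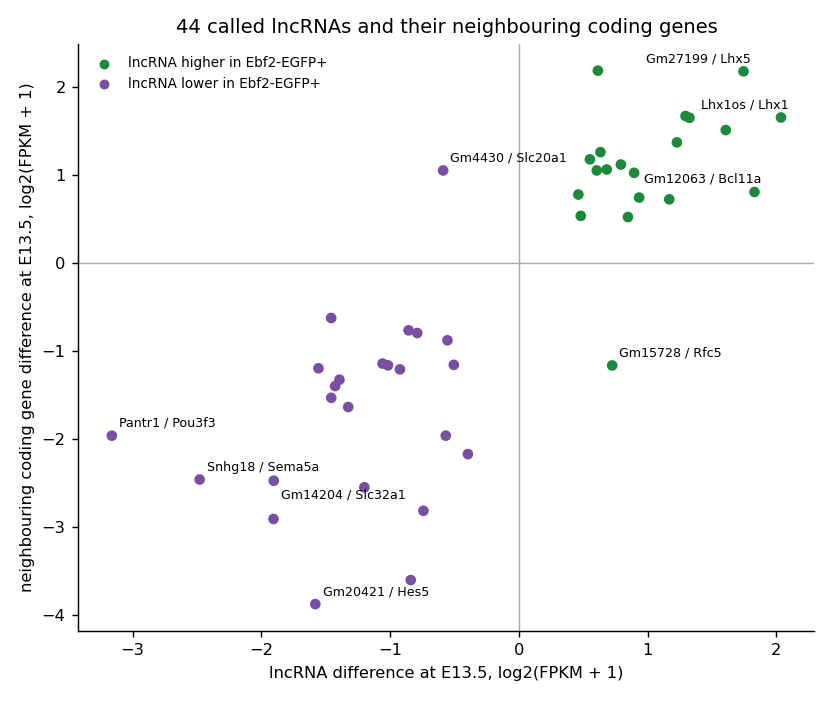
Difference between the populations at E13.5, in log2(FPKM + 1), of 44 called lncRNAs (x axis) and of the protein-coding gene whose start lies within 5000 bases (y axis), with points coloured by the direction of the lncRNA. In 42 pairs both lie on the same side of 0, and *Gm15728* with *Rfc5* and *Gm4430* with *Slc20a1* lie on opposite sides.

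A pair from each direction is shown to let the arrangement be read in sequence, from the RefSeq promoter windows of *Lhx1* (chr11:84525485-84525784, minus strand) and *Slc32a1* (chr2:158610508-158610807, plus strand), the vesicular GABA transporter. Capitals mark the bases that the first exon of *Lhx1os* (65 bases) or *Gm14204* (196 bases) covers on the opposite strand.
Lhx1: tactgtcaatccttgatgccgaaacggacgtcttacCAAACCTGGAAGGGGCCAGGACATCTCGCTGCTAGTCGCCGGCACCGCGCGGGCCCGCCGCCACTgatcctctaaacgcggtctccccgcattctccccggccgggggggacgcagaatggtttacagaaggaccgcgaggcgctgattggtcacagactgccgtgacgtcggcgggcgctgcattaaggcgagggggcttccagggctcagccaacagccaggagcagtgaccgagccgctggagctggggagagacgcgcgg
Slc32a1: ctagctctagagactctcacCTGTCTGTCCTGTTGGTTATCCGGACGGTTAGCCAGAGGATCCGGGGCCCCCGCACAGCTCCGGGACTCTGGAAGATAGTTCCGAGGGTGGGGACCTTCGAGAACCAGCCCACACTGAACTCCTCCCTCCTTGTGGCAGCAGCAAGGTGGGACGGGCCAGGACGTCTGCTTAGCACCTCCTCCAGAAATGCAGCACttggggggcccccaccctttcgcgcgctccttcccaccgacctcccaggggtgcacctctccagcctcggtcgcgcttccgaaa
*Gm14204* stood at 0.0754 and 0.0546 against 2.49 and 3.55 FPKM (-1.90 ± 0.24) and *Slc32a1* at 0.131 and 0.122 against 5.32 and 5.19 FPKM (-2.47 ± 0.23). In both windows the lncRNA's first exon ends its capitals short of the coding gene's own transcript, which fills the last 50 bases.

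The difference between populations at E13.5 was compared with that at the other stages by contrasts of the same fit. Against E11.5, the difference was more positive at E13.5 in 757 genes (15.6%) and more negative in 952 (19.6%), and in 1188 of these 1709 genes it was smaller in size at E13.5. Against E15.5, it was more positive in 166 (3.42%) and more negative in 444 (9.14%), 610 genes in all, of which 250 were smaller in size at E13.5. The last count was 1775 genes with the replicate block, and 311, 221, 125 and 1135 genes without Ebf2-EGFP+ replicate 1, Ebf2-EGFP+ replicate 2, Ebf2-EGFP- replicate 1 and Ebf2-EGFP- replicate 2. Both contrasts use the same E13.5 libraries.

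Intermediate progenitor genes shifted between stages. Their median difference was 1.09 at E11.5, where 11 were higher and 0 lower, and -1.03 at E13.5. The E13.5 difference was more negative than that at E11.5 in 16 of 18, and in 19.6% of the table. Shares of the table called at E11.5 itself are not given here. At E15.5 the median was -1.78. *Eomes* gave 3.72, -1.15 and -3.38 from the youngest to the oldest stage (adjusted p = 1.83e-05 against E11.5 and 0.0107 against E15.5). Hem and choroid plexus genes moved the other way, from 15 of 18 lower at E11.5 to 0 lower at E13.5, with 17 of 18 more positive at E13.5. They were not alone in this: endothelial genes went from 7 of 7 lower to 2, with 6 more positive, meningeal or fibroblast genes from 13 of 16 lower to 3, with 9 more positive, and erythroid genes from 8 of 9 lower to 6, with 5 more positive. Over the table, 15.6% were more positive. Of the 7 pericyte genes, lower at both stages, 1 was more positive. Among neuronal genes, *Tbr1* gave 6.34, 1.61 and 1.34, *Neurod6* 5.28, 0.65 and -0.15, and *Slc17a6* 4.87, -0.13 and 0.26 at the 3 stages, each more negative at E13.5 than at E11.5 and none called against E15.5. *Ebf2* gave 4.76, 1.49 and 2.16, and *Calb2* 5.62, 3.60 and 3.96, with the same pattern of calls. *Trp73* was the marker called against both stages, at 4.25, 3.51 and 5.03 (adjusted p = 0.0480 against E11.5 and 0.00724 against E15.5). *Reln* and *Ppp2r2c* were called against neither.

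At E13.5 53 genes departed from both other stages in the direction of a called difference, 22 higher and 31 lower. *Nos1*, neuronal nitric oxide synthase, stood at 14.8 and 22.8 against 2.26 and 6.66 FPKM (1.95 ± 0.34), against differences of 0.40 at E11.5 and 0.09 at E15.5. *Ndrg1*, a stress-responsive gene, stood at 52.9 and 47.9 against 8.54 and 15.02 FPKM (2.05 ± 0.22, with 0.33 and 0.61 at the other stages), and *Lhfp*, a tetraspan membrane protein, at 10.1 and 9.39 against 3.35 and 4.16 FPKM (1.18 ± 0.17, with -0.25 and -0.30). *Rspo3* of the hem list was among them (2.29, with 0.49 and 0.91). *Hs6st2*, a heparan sulfate sulfotransferase, stood at 23.5 and 28.9 against 14.9 and 19.7 FPKM (0.58 ± 0.21) while its differences were -1.69 at E11.5 and -0.95 at E15.5. Its call at E13.5 held in 2 of 4 fits without a library.

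On the lower side the subplate gene *Nr4a2* was -1.01 at E13.5 but 0.55 at E11.5 and 0.89 at E15.5, called in all 3. *Id4*, an inhibitor of helix-loop-helix factors, stood at 12.9 and 9.14 against 171 and 99.1 FPKM (-3.46 ± 0.33, with -1.81 and -1.80 at the other stages), and *Ndrg2*, a glial gene, at 12.97 and 11.2 against 53.4 and 42.7 FPKM (-1.90 ± 0.23, with -0.31 and 0.09). *Rassf4*, a Ras-association protein, stood at 1.28 and 1.15 against 4.201 and 3.16 FPKM (-1.07 ± 0.26, with 0.40 and 0.65), and *Rgs5* differed by -0.73 and -0.14 at the other stages. The number of such genes rested on single libraries: it was 8 without Ebf2-EGFP- replicate 1, 17 without Ebf2-EGFP+ replicate 2, 33 without Ebf2-EGFP+ replicate 1, 117 without Ebf2-EGFP- replicate 2 and 222 with the replicate block.

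**Figure D5:**
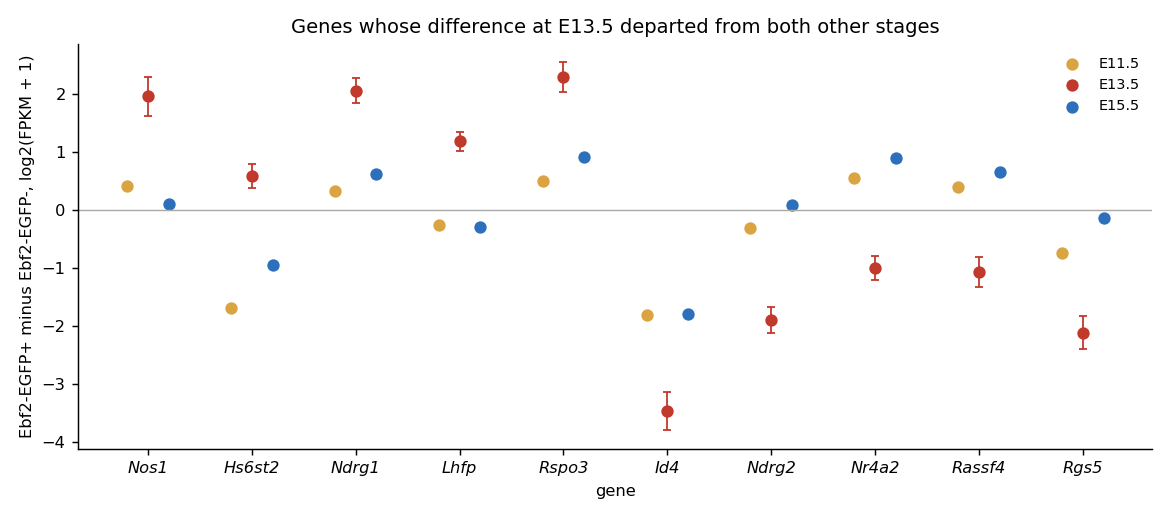
Difference between Ebf2-EGFP+ and Ebf2-EGFP- cells, in log2(FPKM + 1) on the y axis, at the 3 stages for the 10 genes with the largest departures of E13.5 from both other stages (5 in each direction); bars are the SE of the E13.5 difference. *Nr4a2* lies at 0.55 and 0.89 at the other stages and at -1.01 at E13.5, and *Nos1* at 0.40 and 0.09 and at 1.95.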

How the data were processed

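The authors aligned reads to mm10 with TopHat2 2.0.8b and computed FPKM with Cufflinks 2.2.0, per the labels, with a UCSC annotation for coding genes and GENCODE for lncRNAs. The deposited FPKM columns of the 12 libraries were used. They hold no counts, and of depth the study gives only an average number of reads over its samples, not that of each library. Fold changes, p-values and q-values of the authors' own comparisons in the same tables were not used. The tables hold features the authors picked as differential at some stage.

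Values were tested as log2(FPKM + 1) with limma 3.58.1 (R 4.3.3) in 1 fit of the 12 libraries as 6 groups, with a trended variance and Benjamini-Hochberg adjustment over each table. Differences between stages were contrasts of that fit. No single value was tested by permutation, since 2 against 2 libraries cannot give an exact two-sided p under 0.333. Simulated data with known changes served to test the fit. Samples pooled several embryos, and the 2 replicates of a group are biological per the study's methods. In the numbers shared by the populations, same-numbered libraries deviated together (correlations across coding genes of 0.431, 0.534 and 0.431 from the youngest to the oldest stage, and across lncRNAs of 0.265, 0.385 and 0.435), so that the numbers were taken to pair the samples, and a fit with the replicate block was run as an alternative. Other alternatives were a pseudocount of 0.1, a minimum mean of 1 FPKM, no trend, median-of-ratios scaling, fewer stages, thresholds of 0.01 and of a 2-fold change, and leaving out each E13.5 library.

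The comparison and the 24 gene lists were chosen with earlier results of these data known. Named were the markers and *Ebf2*, the 10 genes each way with the largest called difference at 5 FPKM or more in the higher population without overlap, 3 lncRNAs each way at 1 FPKM or more, 5 genes each way that departed furthest from both other stages, and of each list the 3 members of largest difference and the 2 of highest level. Every other gene named was chosen after its values were seen. These were the genes called against the direction of their list or not called, and members shared between lists. They also included the remaining *Zic*, *Notch*, *Ebf* and globin genes, neighbours of lncRNAs, *Gm14204*, and single members given for their role. Some genes that the rule names are not reported here. Promoter windows and motif counts used RefSeq (GRCm38.p6), and lncRNA positions GENCODE M21. Python 3.11.15, pandas 2.3.3, numpy 2.4.6 and matplotlib 3.10.9 were used.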

Additional observations from a re-analysis of the deposited data

Results flagged for a closer look

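The difference between populations (Ebf2-EGFP+ minus Ebf2-EGFP-, log2(FPKM + 1)) departed at E13.5 from that at another stage, by a contrast of the limma fit at adjusted p under 0.05, in 3 of the genes that mark or drive the sort. For *Calb2* the E13.5 difference minus the E11.5 difference was -2.02 and for *Ebf2* it was -3.27. For *Trp73* it was -0.75 against E11.5 and -1.52 against E15.5.

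The same contrasts against E11.5 and E15.5 were 1.55 and 1.86 for *Nos1*, 2.27 and 1.53 for *Hs6st2*, 1.73 and 1.44 for *Ndrg1*, 1.43 and 1.47 for *Lhfp* and 1.80 and 1.37 for *Rspo3*. On the negative side they were -1.66 and -1.67 for *Id4*, -1.59 and -1.99 for *Ndrg2*, -1.56 and -1.89 for *Nr4a2*, -1.47 and -1.72 for *Rassf4* and -1.38 and -1.97 for *Rgs5*. These 10 genes were picked by the size of these contrasts, so their sizes are a description, and both contrasts share the E13.5 libraries.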

How the results depend on the processing

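The count of 3673 coding genes called at E13.5 stayed within 1.5 times under each alternative except a minimum 2-fold change (1815). The 112 lncRNAs came to 73 at a threshold of 0.01, 55 at 2-fold and 67 to 96 without 1 library (67 without Ebf2-EGFP- replicate 1, 74 without Ebf2-EGFP+ replicate 2). Genes that differed from E11.5 (1709) came to 946 at 0.01 and 984 at 2-fold. Genes that differed from E15.5 (610) came to 98 at 0.01, 397 at 2-fold, 138 with the libraries of those stages alone, 1775 with the replicate block, 1851 with the block and scaling together (added after seeing the data) and 125 to 1135 without 1 library. The 53 genes that departed from both stages came to 222 with the block and 8 to 117 without 1 library, also added later. Of 126 named features under 10 alternatives, 1214 values kept direction and call, 32 lost the call, 7 gained it and 5 turned sign: *Cd68* without Ebf2-EGFP- replicate 2 (0.00308, range without 1 library from -0.37), *Crabp2* without Ebf2-EGFP+ replicate 1 (-0.47) or Ebf2-EGFP- replicate 2 (-0.42, range up to 0.60), and *Fos* without the same libraries (0.16 and 0.089, range from -1.62). The replicate block made *Fos* and *Gria2* called and changed no other named call. The causes were not tested. The depth of each library is not given with the FPKM values (the study states an average over samples), so that no counting error is given for genes of low level.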

Other observations

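Gene families outside the lists, chosen after their values were seen, are given as counts beside the 32.1% of table genes that were higher and the 43.5% that were lower in Ebf2-EGFP+ cells at E13.5. Of 24 kinesin genes 17 were lower and 7 higher. The higher ones, *Kif1a*, *Kif3a*, *Kif3c*, *Kif5a*, *Kif5c*, *Kif21b* and *Kif26a*, include motors of axonal transport, and *Kif5a* stood at 50.2 and 56.5 FPKM in Ebf2-EGFP+ against 15.7 and 23.2 FPKM in Ebf2-EGFP- cells. *Kif11*, a motor of the mitotic spindle, stood at 6.83 and 4.14 against 36.7 and 25.4 FPKM. Of 23 ATPase genes 16 were higher and 3 lower.

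Of 21 collagen genes 14 were lower and 1, *Col9a2*, higher, with *Col2a1* at 0.940 and 0.574 against 17.3 and 14.8 FPKM. Of 10 Frizzled receptors 7 were lower and 0 higher, with *Fzd8* at 3.38 and 3.08 against 37.0 and 23.4 FPKM. All 9 nucleoporin genes were lower, as were 8 of 9 *Rad* genes, 14 of 19 histone genes and 8 of 11 *Sox* genes, of which *Sox5*, a factor of deep-layer neurons, was the higher one.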
